A study of Mus musculus with 2 samples.

Results

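The cells described here are eye cup cells of newborn mice in which transcripts of ciliary margin marker genes were detected together. A cell barcode was a member when it held a UMI (a uniquely tagged transcript molecule) of at least 2 of the 6 genes Wfdc1, Otx1, Msx1, Cldn10, Zic1 and Zic2. It also had to pass exclusions against other cell types: Col1a1, Col1a2 and Col3a1 together under 0.2% of UMIs, no Pecam1 or Cdh5, Pmel, Tyrp1 and Dct together under 1% of UMIs, at most 2 UMIs of Krt5, Krt14 and Krt15, and no Tfap2b. Of 26158 barcodes with at least 200 genes and at most 15% mitochondrial UMIs, 594 were members (230 of 14131 control and 364 of 12027 mutant barcodes). The rule was chosen from results of these same libraries, so the levels of its 6 genes are a description of how the cells were picked.

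The series asked what loss of Myrf, a membrane-bound transcription factor linked to a small but structurally normal eye in humans, does to cells of the developing eye. Both groups were postnatal day 0 eye cups from which cornea, lens and optic nerve had been removed, and each was 1 library made from 3 pooled samples. Control animals carried the floxed allele alone (Myrf fl/fl), and mutant animals carried the same floxed allele with Cre under Rx regulatory sequence (Rx>cre Myrf fl/fl). Rx is active in the early eye field, so the deletion is not limited to the ciliary margin, and the Myrf fl/fl controls carried no Cre. With 1 library per genotype there was no replicate, no test was made, and every interval below is a 95% interval of counting error only. Genotype, library and animal cannot be told apart. The 2 libraries also differed in sex composition: 70.0% of control members held UMIs of Y-linked genes and none of Xist, while 71.2% of mutant members held Xist and no Y-linked UMI. The part that sex played in the differences was not tested.

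The ciliary margin is the rim of the optic cup, where the neural retina meets the pigment epithelium. Its cells form the inner and outer epithelia of the ciliary body and the iris, which secrete aqueous humour, deposit proteins of the vitreous and the zonule and shape the front of the eye. WNT and BMP signalling maintain this zone against the neural retina. Msx1 and Otx1 are homeobox transcription factors of the margin, Wfdc1 encodes a secreted protein with a WAP domain, Cldn10 encodes a tight junction claudin, and Zic1 and Zic2 encode zinc finger transcription factors that retinal progenitors near the margin and elsewhere can also express.

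The members were mostly chosen by the Zic genes. Zic1 was detected in 91.3% of control and 87.9% of mutant members, and Zic2 in 81.7% and 87.4%. Wfdc1 was detected in 17.0% and 19.0%, Otx1 in 13.5% and 7.69%, Msx1 in 10.9% and 4.40% and Cldn10 in 8.70% and 7.97%. Zic1 and Zic2 alone, with none of the other 4 genes, made up 144 of 230 control members (62.6%) and 241 of 364 mutant members (66.2%). Wfdc1, Otx1 and Msx1 were found together in 8 control barcodes and 1 mutant barcode. Just inside the limit, 195 control and 317 mutant members held exactly 2 of the 6 genes, with a median of 6489 and 6554 UMIs. Just outside it, 1430 and 2218 barcodes that passed the exclusions held 1 gene, with a median of 5086.5 and 5210.5 UMIs. Members therefore came from the deeper barcodes, with a median of 6893 UMIs in control and 6761 in mutant barcodes, against 4231 and 4990 in all barcodes kept. The 2 libraries shared 59 barcode sequences, none of them members.

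Summed over members and given as CPM (a gene's UMIs per 1000000 UMIs of the members), Wfdc1 (chr8:119666365-119688222, plus strand, GRCm38) was at 113 CPM in control and 30.6 in mutant barcodes. Msx1 (chr5:37820485-37824583, minus strand) was at 28.6 and 6.95 CPM, and Otx1 (chr11:21994764-22002897, minus strand) at 23.2 and 11.1. Cldn10 (chr14:118787908-118875489, plus strand) was at 13.0 and 14.2 CPM. Zic1 (chr9:91358058-91365810, minus strand) was at 185 and 153 CPM, and Zic2 (chr14:122475435-122479852, plus strand) at 138 and 146. These genes picked the members, so their levels are not evidence of a difference between genotypes. Of the 210 control UMIs of Wfdc1, 84.3% lay in 13 barcodes, described next.

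The members did not form a single kind of cell, and the label of ciliary margin epithelium was borne out in only a few of them. They were divided, after their values were seen, by 2 counts per barcode. Wfdc1-rich members held at least 4 Wfdc1 UMIs, and numbered 13 in control and 3 in mutant barcodes. A second subset held at least 2 UMIs of Pax2, S100b and Gfap, genes of the astrocyte lineage, and numbered 17 and 27. The remaining 200 and 334 members are called other members. The Wfdc1 limit is a range along a count: in the control 2 members held 3 Wfdc1 UMIs, 1 held 4, 1 held 5 and 11 held 6 or more, and in the mutant 3 held 3, 1 held 5 and 2 held 6 or more. The second limit lay in a sparse range too, since 2 control members and 5 mutant members held 1 UMI of the astrocyte genes, and 211 and 332 held none. Over all barcodes kept, 11.6% of control and 10.1% of mutant barcodes were called as doublets. Among members, calls fell on 25 of 230 control ones (10.9%) and 41 of 364 mutant ones (11.3%). Of these, 25 and 40 were among the other members, 1 was among the 3 mutant Wfdc1-rich members, and the control Wfdc1-rich members and the astrocyte-gene subset of both libraries held none.

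**Figure D1:**
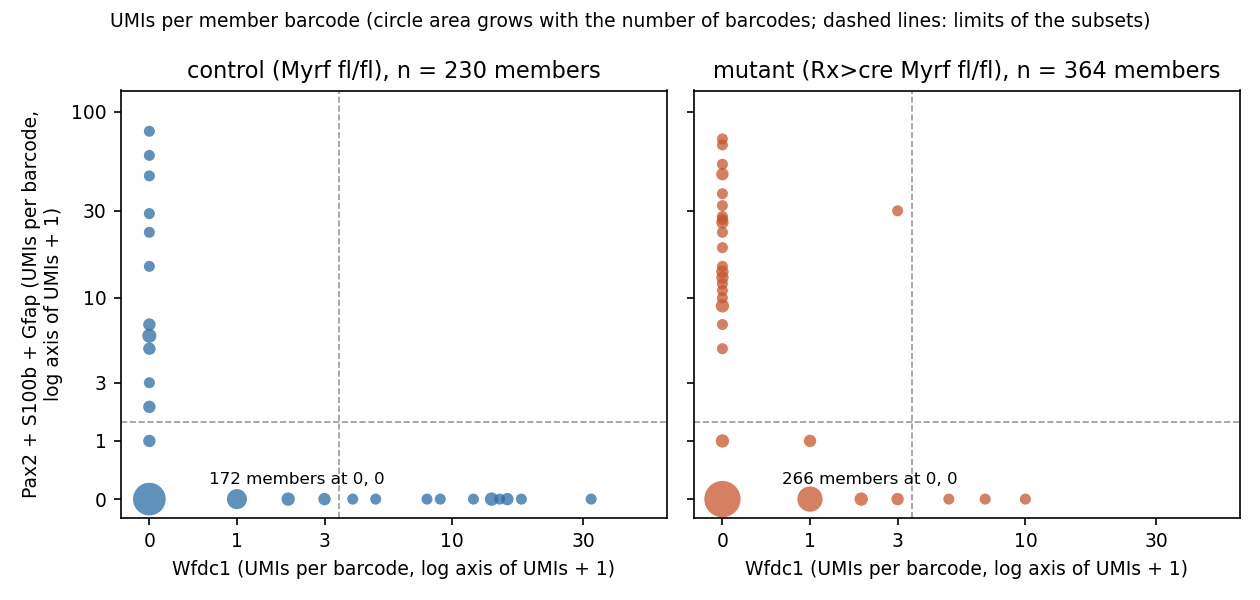
UMIs per member barcode of Wfdc1 (horizontal, log axis of UMIs + 1) against Pax2, S100b and Gfap together (vertical, the same scale), in the control (230 members) and the mutant (364 members); circle area grows with the number of barcodes and dashed lines mark the limits of the subsets. Most members lie at or near the origin, the 13 Wfdc1-rich control members lie along the horizontal axis, and the 17 and 27 members with astrocyte genes lie along the vertical one, apart from 1 mutant member with 3 Wfdc1 UMIs and 30 UMIs of the astrocyte genes.

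The Wfdc1-rich control members held genes of the ciliary epithelium outside the rule, some of which pigment epithelium barcodes also held. Optc (chr1:133897199-133907999, minus strand), which encodes opticin, a vitreous proteoglycan secreted by the non-pigmented ciliary epithelium, reached 1872 CPM (1648 to 2117), with UMIs in 11 of the 13 barcodes and a median of 19. Bmp4 (chr14:46383520-46390669, minus strand), a BMP ligand of the margin, was detected in all 13 at 666 CPM (535 to 819), between 1 and 18 UMIs each. Col9a1, a chain of the vitreous collagen IX, was at 2812 CPM in the same 13 barcodes, between 2 and 71 UMIs each. In the other control members Optc was at 6.87 CPM, Bmp4 at 9.62 and Col9a1 at 256. In the 221 control pigment epithelium barcodes, chosen by Pmel, Tyrp1 and Dct, Bmp4 was at 478 CPM, Col9a1 at 28.6 and Optc at 0. The 13 barcodes held 72.7% of the Optc UMIs, 85.7% of the Bmp4 UMIs and 45.1% of the Col9a1 UMIs of all 230 control members.

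Further genes followed the same division. Gja1, the gap junction protein connexin 43 that couples the ciliary epithelia, was at 659 CPM in the Wfdc1-rich control members, 48.8 in the other members and 504 in pigment epithelium barcodes. Aldh1a1, a retinaldehyde dehydrogenase, was at 1095 and 87.2 CPM, Mfap4, a microfibril-associated protein, at 910 and 68.0, and Notum, a secreted enzyme that inactivates WNT ligands, at 363 CPM in the Wfdc1-rich members. Ranked by their excess over the other members, with the 6 rule genes left out, the 15 leading genes of the Wfdc1-rich control barcodes were Optc, Bmp4, Rab38, Notum, Pla2g5, Crhbp, Tac1, Reln, Ctsh, Rhoj, Folr1, Ehbp1, Nbl1, Penk and Ntrk2. Crhbp, which encodes the corticotropin-releasing hormone binding protein, was at 2915 CPM and was detected in 13 of 13. Rab38, a small GTPase of melanosome biogenesis, was at 377 CPM in 11 of 13.

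Genes of the retinal progenitor list lay in both directions. The list of 16 genes summed to 8258 CPM in Wfdc1-rich control members and 12367 in the other control members. Pax6, the eye field regulator that the ciliary epithelium keeps, was at 807 and 565 CPM, and the progenitor gene Dapl1 at 3367 and 1161. Lower were the Notch effector Hes5, at 118 and 1530 CPM, and Sox2, a neural stem cell factor, at 7.40 and 287. The D-type cyclin Ccnd1 was at 585 and 4089 CPM, and the topoisomerase Top2a of dividing cells was not detected in the 13 barcodes (0 UMIs, at most 27.3 CPM) against 734 in the other members. Astrocyte genes were absent there too, since Pax2, S100b and Gfap had 0 UMIs in the 13 barcodes. Cldn10, although part of the rule, had none either.

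A further 6 genes outside the rule (Optc, Bmp4, Notum, Gja1, Aldh1a1 and Mfap4) were then counted in every barcode past the exclusions, member or not. In the control, 20 barcodes held at least 4 of these 6 genes, of which 18 were members and 13 were Wfdc1-rich. At least 5 of the 6 were held by 11 control barcodes, all of them members and 10 of them Wfdc1-rich. In the mutant 5 barcodes held at least 4 genes and 1 held at least 5. These genes were chosen after their levels in the Wfdc1-rich members had been seen.

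The 3 mutant Wfdc1-rich barcodes differed from each other. One held 28 Top2a UMIs and no Optc, Bmp4, Gja1 or Col9a1. One held 5 Msx1 UMIs, 20 Col9a1 UMIs and 2 Gja1 UMIs with no Optc or Bmp4. The remaining one held 10 Wfdc1, 18 Col9a1, 3 Optc and 1 Bmp4 UMIs. Summed over the 3, Optc was at 83.5 CPM (17.2 to 244), Bmp4 at 27.8 (0.705 to 155) and Aldh1a1 at 306 (153 to 548). Notum was at 223 CPM in 2 of the 3 (log2 ratio to the control ones -0.70, -1.99 to 0.39) and Crhbp at 807 CPM in 2 of the 3 (-1.85). The 13 control barcodes held a median of 6 Bmp4 UMIs, and none of the 3 mutant barcodes held more than 1.

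**Figure D2:**
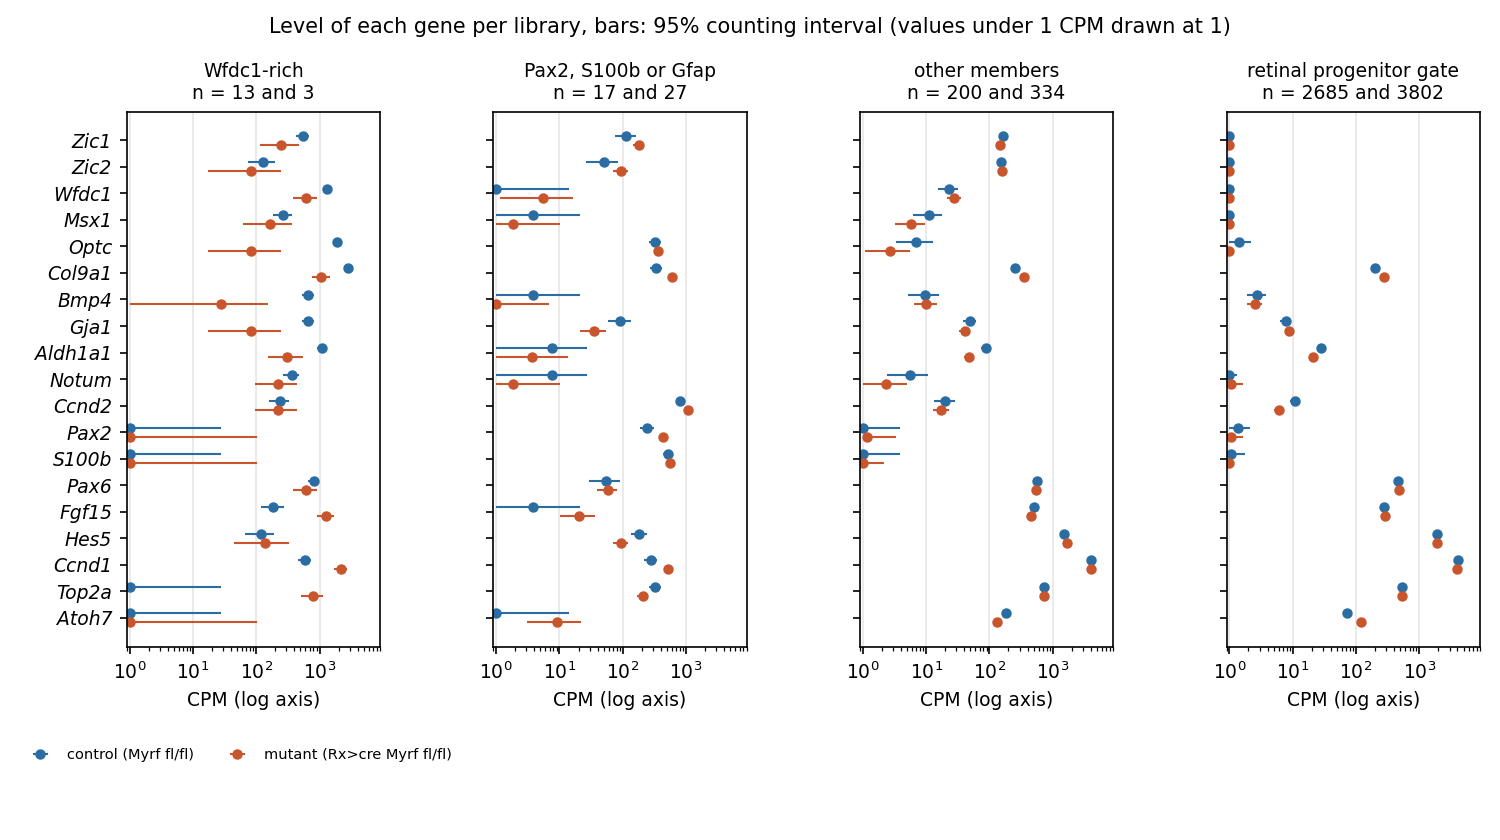
Levels of 19 genes in CPM (horizontal, log axis, values under 1 drawn at 1) in control and mutant for the 3 subsets of members and for retinal progenitor barcodes that hold none of the 6 rule genes; bars are 95% counting intervals. Optc, Bmp4, Gja1 and Aldh1a1 are high in the 13 Wfdc1-rich control members, Optc, Ccnd2, Pax2 and S100b in the second subset, while Hes5 and Ccnd1 in the other members lie near their level in progenitors and Gja1 and Aldh1a1 lie above it.

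Wfdc1-rich members made up 0.0920% of control barcodes kept (13 of 14131, 0.0490 to 0.157) and 0.0249% of mutant barcodes (3 of 12027, 0.00514 to 0.0729). Wfdc1 chose these barcodes, and the limit was set after its values were seen, so these shares describe the barcodes picked and are not evidence of a difference between genotypes. The log2 ratio of mutant over control was -1.88. Over barcodes past the exclusions the shares were 0.216% and 0.0339%, a log2 ratio of -2.67. Every barcode past the exclusions with at least 4 Wfdc1 UMIs was a member, and before the exclusions 39 control and 13 mutant barcodes had that many. The ratio changed with the mitochondrial limit. In the control, 10 of the 13 had over 5% mitochondrial UMIs (median 5.42%, 4.30 to 8.32) and in the mutant 0 of 3 had (median 2.97%). With the limit set at 5% the numbers were 3 and 3, and the log2 ratio was 0.064. All control members had a median of 3.75% and all mutant members 3.06%, and pigment epithelium barcodes had 5.62% and 5.82%. Among kept barcodes with a Y-linked UMI and no Xist, 9 of 7134 control (0.126%) and 1 of 1625 mutant barcodes (0.0615%) were Wfdc1-rich, a log2 ratio of -1.04. With a limit of 3 Wfdc1 UMIs the log2 ratio was -1.09. Counts at a higher limit lay further apart, with 6 or more Wfdc1 UMIs in 11 control and 2 mutant members.

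The second subset carried genes of the astrocyte lineage together with some of the ciliary margin list, which summed to 2072 and 2751 CPM there against 453 and 546 in progenitors and 7007 and 1809 in the Wfdc1-rich members. Pax2, the transcription factor of the optic stalk and of retinal astrocyte precursors, was at 244 CPM in control and 434 in mutant barcodes, in 16 of 17 and 26 of 27 barcodes. S100b, a calcium-binding protein of glia, was at 519 and 561 CPM, and the glial filament gene Gfap at 405 and 258, in 6 of 17 and 13 of 27 barcodes. These 3 genes chose the subset. Outside that choice, the 15 leading genes in both libraries were Cartpt, Fbxo2, Mlc1, Thrsp, Pdlim3, Aldoc, Pdgfra, Lcat, Bcan, Cxcl12, Adm, Crip1, Optc, Epas1 and Ier3. Pdgfra, the receptor by which astrocyte precursors take up PDGF, was at 523 and 369 CPM, Mlc1, a membrane protein of astrocyte endfeet, at 218 and 206, and Aldoc, a glial aldolase, at 313 and 503.

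Some genes counted as ciliary were high in this subset. Optc was at 324 CPM in control and 358 in mutant barcodes, and Col9a1 at 340 and 592. Ccnd2, a D-type cyclin described at the ciliary margin, was at 786 and 1053 CPM, against 237 in the Wfdc1-rich control members and 19.9 in the other control members. Bmp4 was at 3.82 CPM in control barcodes and had 0 UMIs in mutant ones (at most 6.85 CPM), and Aldh1a1 7.63 and 3.71. Pax6 was at 53.4 and 57.5 CPM, under its level in either other subset. In the control, Optc was thus lower here than in the Wfdc1-rich members but above the other members, while Bmp4 and Aldh1a1 were low here. As a share of barcodes kept, the second subset was 0.120% in the control and 0.224% in the mutant (log2 ratio 0.90, -0.028 to 1.87). As a share of barcodes past the exclusions, it was 0.282% (0.164 to 0.451) in the control and 0.305% (0.201 to 0.444) in the mutant.

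At a matched depth of 1000 UMIs per barcode, Optc was detected in 9 of 13 Wfdc1-rich control members (69.2%, 38.6 to 90.9) and in 84.6% without thinning. It was detected in 11.8% and 25.9% of the second subset in control and mutant, and in 82.4% and 81.5% without thinning. In the other members it was found in 0 of 200 and 0 of 334 barcodes after thinning, which at that depth allows a share of barcodes with a UMI of up to 1.50% and 0.898% (3 counts of the total). Without thinning it was found in 2.00% and 1.50%. Progenitor barcodes with none of the 6 rule genes, a cell type that should lack Optc, held it in 0.149% and 0.106% after thinning. Their median depth was 4733 and 4767.5 UMIs, against 10779 in Wfdc1-rich control members and 6442.5 and 6497.5 in the other members. Without thinning the progenitors held it in 0.298% and 0.289%. At 1000 UMIs Optc was not detectable in the other members, which does not show that they lack it.

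The other members, 200 and 334 barcodes, had the gene levels of dividing retinal progenitors. They are set beside progenitor barcodes that passed the same exclusions, held none of the 6 rule genes and held at least 3 of 6 progenitor genes, Fgf15, Sfrp2, Lhx2 and Rax among them (2685 in control and 3802 in mutant barcodes). Hes5 was at 1530 CPM in control and 1657 in mutant members, against 1930 in the progenitors of both libraries, and Ccnd1 at 4089 and 4010 against 4075 and 3902. Rax, the retinal homeobox gene, was at 531 and 508 CPM against 548 in both libraries. It helped to choose the progenitor barcodes, so its level in them describes that choice. The 16 genes of a retinal progenitor list had a median log2 ratio of all members over these progenitors of -0.061 in control and 0.0092 in mutant barcodes, and none was 2-fold apart in both libraries.

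Some marker lists of other cell types differed between the other members and those progenitors. Red blood cell genes summed to 126 and 203 CPM in control and mutant against 2736 and 2993, and immune markers to 5.49 and 1.93 against 117 and 88.6. Pericyte markers summed to 159 and 72.2 CPM against 14.5 and 12.7. Of these members' pericyte UMIs, 178 of 231 in the control and 140 of 187 in the mutant lay in 1 barcode per library. Single genes that differed are given next, picked after their values were seen. Zic5, whose gene lies beside Zic2, was at 72.1 and 62.1 CPM against 29.9 and 32.0, and Zic4, whose gene lies beside Zic1, at 12.4 and 9.26 against 4.00 and 4.19. Fgf15, a fibroblast growth factor of retinal progenitors, was at 509 and 447 CPM against 274 and 282, and the secreted WNT modulator Sfrp2 at 140 and 175 against 81.7 and 102. Both helped to choose the progenitor barcodes, so their levels in those barcodes describe that choice. Atoh7, the bHLH factor of ganglion cell competence, was at 180 and 130 CPM against 73.2 and 119, and Top2a at 734 and 716 against 542 and 529. Aldh1a1 was at 87.2 and 47.9 CPM against 27.9 and 21.1. Gja1 was at 48.8 and 40.9 CPM against 7.72 and 8.89, but it came from few barcodes: in the control, 5 barcodes held 28, 15, 8, 4 and 4 of the 71 UMIs, and in the mutant 4 held 30, 28, 19 and 13 of 106. The control barcode with 28 also held 1 Wfdc1, 3 Otx1, 4 Bmp4 and 20 Col9a1 UMIs. These genes were picked with the values of both libraries seen, so their shared direction in the 2 libraries describes that choice. Members were selected by the detection of low genes and were deeper than the progenitors, and what part depth or doublets had in these differences was not tested.

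When all members were set against the progenitors, 154 of 7441 genes (2.07%) were 2-fold or more higher in both libraries and 1 (0.0134%) was lower. Outside the rule the 20 genes highest over progenitors in both libraries included Optc, S100b, Gfap, Cartpt, Adamts16, Fbxo2, Mlc1, Lcat, Rgs5, Myh11, Ntrk2, Pax2, Thrsp, Bcan, Pcp4l1, Crip1, Higd1b, Ccnd2 and Adm. Several of these are genes of astrocytes (S100b, Gfap, Mlc1, Bcan) and of mural cells (Rgs5, Myh11, Higd1b). The mural genes came from few barcodes: 345 of 391 control and 748 of 766 mutant UMIs of a smooth muscle list lay in 1 barcode per library, and 178 of 250 and 140 of 309 UMIs of a pericyte list did. Rgs5 was detected in 10 control and 14 mutant members, with 146 of 195 and 98 of 230 UMIs in 1 barcode. Binned at 2000 UMIs by the number of rule genes, Optc in the control was at 2.26 CPM with 0 genes, 10.1 with 1, 150 with 2 and 1714 with 3, over 5099, 693, 40 and 7 barcodes. In the mutant it was at 1.12, 1.83 and 21.7 CPM with 0, 1 and 2 genes, and none was found in the 3 barcodes with 3 genes (at most 615 CPM).

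Members were a larger share of the mutant barcodes kept, and over the barcodes that the exclusions left the interval of the ratio included 0. They made up 1.63% (1.43 to 1.85) of control barcodes and 3.03% (2.73 to 3.35) of mutant barcodes, a log2 ratio of 0.89 (0.65 to 1.14). Of barcodes past the exclusions they made up 3.82% (3.35 to 4.33) of 6024 in the control and 4.11% (3.71 to 4.55) of 8846 in the mutant, a log2 ratio of 0.11 (-0.13 to 0.35). The collagen limit alone removed 45.7% of control and 11.5% of mutant barcodes. The median collagen share was 0.173% of UMIs in control and 0.0156% in mutant barcodes kept. Even in barcodes with at least 3 progenitor genes it was 0.117% and 0.0121%, so the limit bore more heavily on the control library. At this limit 133 control and 67 mutant barcodes with at least 2 rule genes had too much collagen to be members. Against the sum of members and progenitor barcodes the log2 ratio was 0.15.

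**Figure D3:**
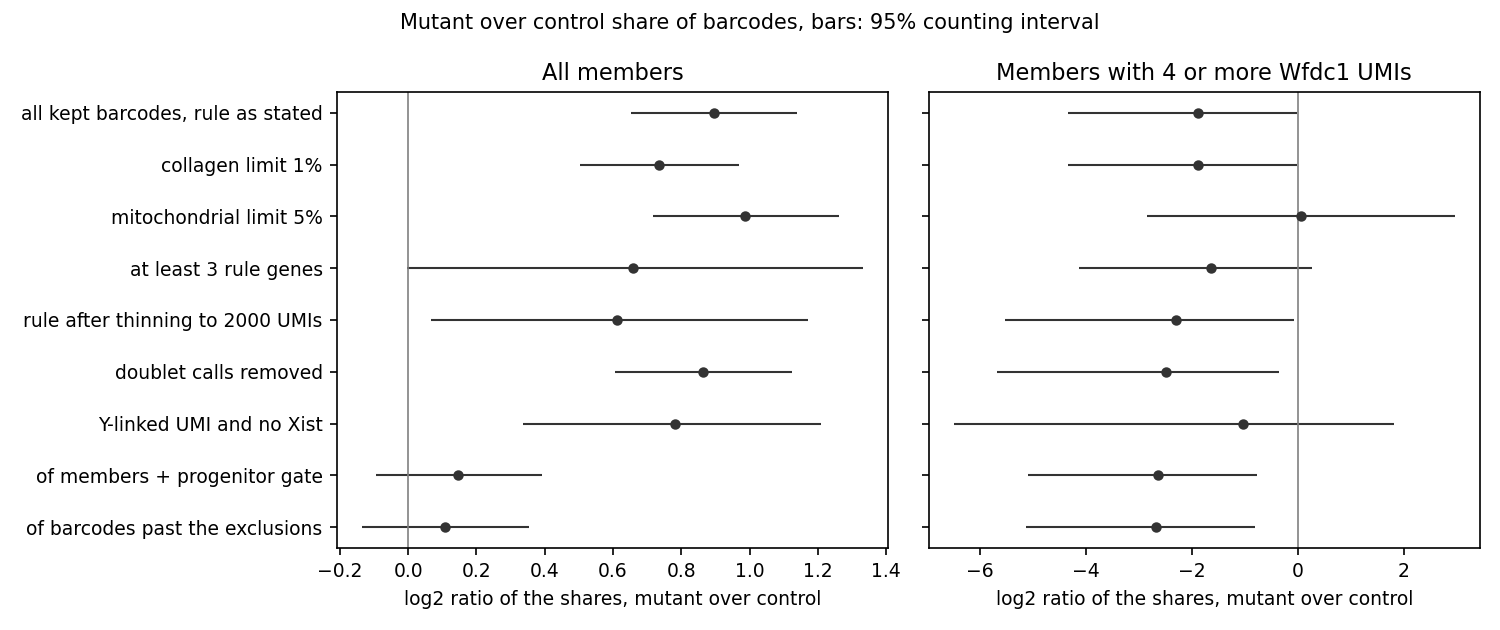
Log2 ratio of mutant over control for the share of barcodes that are members (left) and that are Wfdc1-rich members (right), under the rule as stated and 8 other settings; bars are 95% counting intervals. The left ratio is 0.89 over all barcodes kept and 0.11 over those past the exclusions, and the right ratio is -1.88 over all barcodes kept and 0.064 at a mitochondrial limit of 5%.

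Within members, 10415 genes had at least 30 UMIs over both libraries. Of these, 141 (1.35%) were 2-fold or more higher in the mutant and 111 (1.07%) were 2-fold or more lower, on a scale of log2(CPM + 1). Counting intervals lay above 0 for 835 genes (8.02%) and below 0 for 602 (5.78%), and the median log2 ratio was 0.047. Past the fold either way were 252 genes (2.42%). Of 14 ciliary margin genes outside the rule, 13 had enough UMIs and Msx2 did not. None was past the fold upwards and 5 were past it downwards, with 2 intervals above 0 and 7 below, and the list median was -0.63. The mutant over control median of the list was 0.096 in progenitor barcodes and -0.33 in kept barcodes that were no members. Within each library the list was higher in members than in progenitors. The median log2 ratio was 2.38 in control and 1.24 in mutant, over the 9 genes measured in both libraries. This rested largely on the 2 smaller subsets: in the other members the list summed to 609 and 712 CPM, against 453 and 546 in progenitors. In the Wfdc1-rich members it summed to 7007 and 1809 CPM, and in the astrocyte-gene subset to 2072 and 2751.

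The 5 genes past the fold downwards were Bmp4, Optc, Gja1, Jag1 and Wls. Bmp4 was at 56.7 CPM in control and 8.53 in mutant barcodes (log2 ratio -2.60, -3.40 to -2.11), and Optc at 188 and 64.1 (-1.54, -1.81 to -1.30). The Optc ratio sets different subsets side by side, since 253 of 348 control UMIs lay in Wfdc1-rich members and 193 of 203 mutant UMIs in the astrocyte-gene subset. Gja1 was at 99.3 and 40.4 CPM (-1.28), Jag1, a Notch ligand that the margin expresses, at 21.6 and 9.48 (-1.11), and Wls, which carries WNT ligands to the cell surface, at 11.9 and 5.06 (-1.09). Bmp7, a second BMP ligand, was at 22.1 and 13.9 CPM (-0.63), and Mitf, the pigment cell regulator of the outer layer, at 10.8 and 5.69 (-0.82, -1.93 to 0.069). Axin2, a WNT target, was at 13.0 and 10.1 CPM, Cdon, a hedgehog co-receptor, at 41.0 and 40.1, and Notch2, a Notch receptor of the margin, at 54.0 and 65.7, each with an interval that included 0. Ccnd2 (0.44, 0.23 to 0.66) and Tgfb2, a TGF-beta ligand (0.36, 0.16 to 0.56), had intervals above 0. Most Ccnd2 UMIs, 206 of 267 in the control and 567 of 620 in the mutant, lay in the astrocyte-gene subset, and in the other members Ccnd2 was at 19.9 and 17.4 CPM (-0.19, -0.90 to 0.53). Tgfb2 was at 115 and 132 CPM in the other members (0.20, -0.068 to 0.48).

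Among members, most of the lower values of the ciliary margin list in the mutant rested on the 13 Wfdc1-rich barcodes. Outside the members Bmp4 was lower in the mutant too, at -1.14 in kept barcodes that were no members and at 478 and 184 CPM in pigment epithelium barcodes. Without Wfdc1-rich members, with 217 control and 361 mutant members left, the median of the 13 genes was 0.065. Bmp4 was then at a log2 ratio of -0.064 (-1.04 to 0.95), Optc at 0.21 (-0.15 to 0.58), Jag1 at -0.23 (-1.14 to 0.66) and Wls at -0.67 (-1.88 to 0.35), all with intervals that included 0. Gja1 stayed lower at -0.46 (-0.87 to -0.069). Col9a1, which was at 454 and 400 CPM (-0.18) in all members, was higher in the mutant at 0.54 (0.39 to 0.70). It was higher outside the members too, at 0.47 in progenitors and 0.62 in kept barcodes that were no members. With the mitochondrial limit at 5%, the median of the list was 0.18 and Optc was at -0.70 (-1.01 to -0.40).

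**Figure D4:**
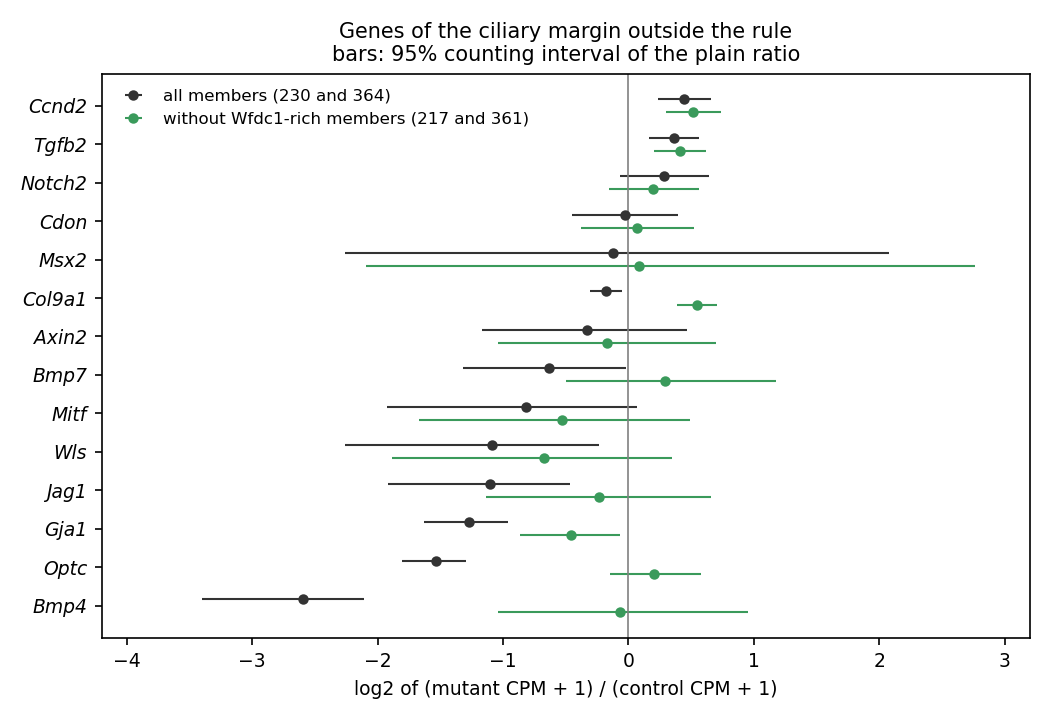
Log2 ratio of mutant over control (horizontal, CPM + 1) for the ciliary margin genes outside the rule, in all members (230 and 364) and without the Wfdc1-rich members (217 and 361); bars are 95% counting intervals of the plain ratio. Bmp4 moves from -2.60 to -0.064 and Optc from -1.54 to 0.21 when the Wfdc1-rich members are left out, and Col9a1 moves from -0.18 to 0.54.

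Of 11 retinoic acid genes measured 1 was past the fold, against 2.42% of all genes. Aldh1a1 was at 149 CPM in control and 43.3 in mutant barcodes (log2 ratio -1.76, -2.09 to -1.49). Without Wfdc1-rich members it was at -0.88 (-1.26 to -0.53), and in progenitor barcodes at -0.39. Aldh1a3, the ventral retinaldehyde dehydrogenase, was at 84.2 and 124 CPM (0.56), and Cyp26a1, which breaks retinoic acid down, at 38.9 and 58.8 (0.58), both with intervals above 0. The list had a median of -0.033.

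Of 23 WNT genes measured, 2 were past the fold, both lower, and the median was -0.12. Over all genes 2.42% were past the fold either way, 1.35% upwards and 1.07% downwards. Notum was at 31.8 and 4.74 CPM (log2 ratio -2.52, -3.67 to -1.91), and 83.1% of its control UMIs lay in the Wfdc1-rich members. The other gene was Wls. The WNT receptor Fzd5 was at 114 and 148 CPM (0.36). Of 26 BMP and TGF-beta genes, Smad3, a signal transducer, was past the fold upwards (3.24 and 8.21 CPM, 6 and 26 UMIs) and Bmp4 downwards, and the median was 0.13. The BMP target Id1 was at 456 and 516 CPM (0.18, 0.056 to 0.30) and Id3 at 752 and 781 (0.053). The BMP receptor Bmpr1b was at 9.17 and 18.3 CPM (0.93, 0.20 to 1.87). Of 15 Notch genes only Jag1 was past the fold (-0.96, within it, without the barcode with the most UMIs in each library), and the median was 0.038. The receptor Notch1 was at 211 and 216 CPM.

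Matrix genes were lower in the mutant in several members of their list. Of 18 vitreous and basement membrane genes measured, 0 were past the fold upwards and 4 downwards, 0 intervals lay above 0 and 11 lay below, and the median was -0.41, but 0.22 with each member thinned to 1000 UMIs, where 7 of the genes were measured. Over all genes 1.07% were past the fold downwards and 5.78% of intervals lay below 0. In kept barcodes that were no members the list's median was -0.41 as well, and in progenitors -0.11. Besides Optc the genes past the fold were Col5a2, a fibrillar collagen chain (55.6 and 17.4 CPM, -1.62), and the basement membrane chains Col4a1 (136 and 52.8 CPM, -1.35) and Col4a2 (89.6 and 39.8 CPM, -1.15). The log2 ratios of the 3 collagens without Wfdc1-rich members were -1.68, -1.45 and -1.27, and in progenitors -1.96, -0.10 and -0.090. Without barcodes in which markers of another cell type held 0.5% of UMIs or more, Col5a2 was at -1.58, but Col4a1 was at 1.06 and Col4a2 at 0.33. Mesenchyme markers were lower in the mutant by a median of -2.04 in members and -2.29 in progenitors, and their summed level was 849 CPM in control and 228 in mutant members. Of the 6 mesenchyme genes measured, 3 (Col1a1, Col1a2 and Col3a1) are those that the rule limits in members and progenitors alike, so these values describe what the exclusion left. The part of these markers in the collagen values was not tested. Of 11 zonule and microfibril genes, Efemp1 was past the fold upwards (10.3 and 24.0 CPM, 19 and 76 UMIs, 1.15, and 0.86 without the barcode with the most UMIs in each library, which held 24 of the 76 in the mutant) and Mfap4 downwards (125 and 42.3 CPM, -1.54, and -0.59 without Wfdc1-rich members), with a median of -0.094. Fbn1, the fibrillin of the zonule, was at 19.97 and 18.6 CPM, and Fbn2, its fetal relative, at 125 and 78.0 (-0.68, -0.95 to -0.42).

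Genes of ciliary transport and epithelial junctions had few members past the fold. Of 12 transport genes 1 was past the fold, Gja1, against 2.42% of all genes, and the median was -0.0048. Of 12 junction genes 1 was past it, Cgn, the tight junction protein cingulin (13.5 and 6.003 CPM, -1.05, and -0.95 without the barcode with the most UMIs in each library), with a median of -0.24. The bicarbonate transporter Slc4a4 was at 27.0 and 32.2 CPM. Myrf had 3 UMIs in control members and 4 in mutant members, and 8 of 13 genes on a list of Myrf and genes the study ties to it were measured. The list mixes genes tied to it in either direction. Intervals lay above 0 for Enpp2, Id1 and Tgfb2 (8.02% of all genes) and below 0 for none, and those of Tmem98, Ermn, Rlbp1, Id3 and Bmp2 included 0. Enpp2 was at 0.37 in progenitors and 0.68 in kept barcodes that were no members, and Id1 at 0.12 and 0.14. The list's median was 0.28 in members, 0.13 in progenitors and -0.24 in kept barcodes that were no members.

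At matched depth, cell cycle genes were found in a larger share of the other control members than of the 13 Wfdc1-rich control members. At 1000 UMIs per barcode, at least 2 UMIs of S phase genes were found in 42.2% (35.7 to 48.8) of control members and 48.9% (43.7 to 54.2) of mutant members. At least 2 UMIs of genes of G2 and mitosis were found in 70.0% (63.6 to 75.8) and 76.6% (72.0 to 80.9). Without thinning the shares were 88.3% and 92.0% for S phase and 92.6% and 96.7% for G2 and mitosis. Postmitotic photoreceptor precursors, chosen by at least 2 of Crx, Rcvrn, Gngt2, Prdm1 and Nrl, gave 11.1% and 11.6% for S phase and 27.6% and 29.9% for G2 and mitosis at the same depth. At that depth 5 control and 16 mutant photoreceptor barcodes and 14 mutant progenitor barcodes were too shallow and were left out. The 13 Wfdc1-rich control members gave 0 for both lists (which allows up to 23.1%, and 69.2% and 76.9% without thinning), whereas among the 3 mutant ones 2 passed for S phase and 1 for G2 and mitosis. At 2000 UMIs 2 of the 13 (15.4%) passed for S phase and 5 (38.5%) for G2 and mitosis, against 66.0% and 86.0% of the other control members. In control and mutant, the second subset gave 5.88% and 22.2% for S phase and 29.4% and 22.2% for G2 and mitosis, and the other members 48.0% and 50.9% for S phase and 78.0% and 81.4% for G2 and mitosis. Progenitor barcodes gave 51.4% and 56.3%, and 75.0% and 75.7%.

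Summed over members, S phase genes were higher in the mutant in the median (0.43) with 14 of 22 intervals above 0 and none below, against 8.02% of all genes above. The largest were Clspn, a checkpoint mediator (44.8 and 89.1 CPM, 0.98), and Ccne1, the cyclin of S phase entry (15.1 and 28.8 CPM, 0.89), and none was past the fold. The same list had a median of 0.18 in progenitors and 0.38 in kept barcodes that were no members. Genes of G2 and mitosis had a median of -0.25, with 12 of 20 intervals below 0 (5.78% of all genes) and none above, and -0.14 in progenitors. With the rule applied after thinning to 2000 UMIs it was 0.62. Ube2c, a ubiquitin conjugase of mitotic exit, was at 732 and 518 CPM (-0.50). Glycolysis and hypoxia genes had a median of 0.33, with 11 of 18 intervals above 0, and 0.45 in kept barcodes that were no members, where Pgk1, a glycolytic kinase at 287 and 466 CPM in members (0.70), was also higher (0.82). Neurogenic genes had a median of 0.082 in 12 genes, with Neurog2, a proneural bHLH factor, at 130 and 82.8 CPM (-0.64, -0.90 to -0.39). The 16 retinal progenitor genes had a median of 0.015 with none past the fold.

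Most genes furthest apart between the libraries were lens, red blood cell and neuronal genes. The 10 lowest in the mutant were Cryga, Cryge, Cryaa, Crygd, Crygb, Cryba1, Crybb3, Tac1, Pde6h and Dqx1, of which the first 7 are lens crystallins. Cryaa had 78 UMIs in control members and 0 in the mutant, and Cryba1 had 80 and 2. The lens marker list had 3 genes measured, Cryaa, Cryba1 and Cryab, the last at -1.03. Their median log2 ratio was -4.76 in members, -6.31 in progenitors and -6.82 in kept barcodes that were no members. Lens markers in Wfdc1-rich control members were at 444 CPM, against 172 over all control members. Tac1, a neuropeptide precursor, was lower at 27.5 and 1.26 CPM (-3.66), and 82.4% of its control UMIs lay in the Wfdc1-rich members. Pde6h (-3.57) had 27 of 48 control UMIs in 1 barcode, and Dqx1 (-3.29) had 37 of 62. In progenitors Pde6h was at -1.21 and Dqx1 at 0.55, and in kept barcodes that were no members they were at -0.088 and 0.43. The 10 highest were Hbb-bt, Hbb-bs, Hba-a2, Cartpt, Hba-a1, Sncg, Isl1, Ttr, Gap43 and Krt18. Red blood cell genes had 10785 of 11345 mutant UMIs in 1 barcode, so that Hbb-bs, at 57.7 and 2106 CPM (5.16), was at 0.86 without the barcode with the most. Cartpt, at 39.9 and 812 CPM (4.31), had 1227 of 2571 mutant UMIs in 1 barcode and was at 4.46 without it and its control counterpart. The astrocyte-gene subset held 98.6% of control and 100% of mutant Cartpt UMIs. Among members with a Y-linked UMI and no Xist, Cartpt was at -5.71, but that subset there numbered only 14 control barcodes and 1 mutant barcode. Ganglion cell markers, 8 listed genes, summed to 42.1 CPM in control and 128 in mutant members. In the mutant, 190 of 405 of their UMIs lay in 1 barcode. Of 6 genes measured, 5 were 2-fold or more higher in the mutant (median 2.69), against 1.35% of all genes. These 5 reached the limit for a measured gene mainly by their mutant UMIs. Nefl had 0 UMIs in control and 42 in mutant members, Sncg 2 and 86, and Isl1 3 and 70. Nefm had 5 and 52, and Elavl4 7 and 34. The count and the median therefore rest on genes picked partly by a high mutant level, and are not evidence of a difference. Without the barcode with the most UMIs of each gene the median was 1.70, and Sncg, with 72 of 86 mutant UMIs in 1 barcode, moved from 3.76 to 1.82.

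Markers of other cell types differed in level in members, and the rule itself holds some of them down: it allows no Pecam1, Cdh5 or Tfap2b, which are on the endothelial and the amacrine and horizontal lists, and it limits mesenchyme collagens, pigment genes and keratins. Immune markers summed to 4.86 CPM in control and 2.21 in mutant members, skeletal muscle markers to 6.48 and 6.95, and surface epithelium markers to 29.7 and 23.7. Pigment epithelium markers summed to 223 and 329 CPM, against 153 and 154 in progenitors, with Rpe65 at 0 UMIs in both libraries. Of 7 measured, 2 were 2-fold or more higher in the mutant, Tyr (1.39) and Ttr (2.44), against 1.35% of all genes. In 1 barcode per library lay 99 of 413 control and 268 of 1040 mutant UMIs of the list. Melanocyte markers summed to 94.4 and 112 CPM, with Pax3 at 0 in both. Endothelial markers summed to 192 and 207 CPM, amacrine and horizontal cell markers to 118 and 137, and photoreceptor markers to 369 and 379. Astrocyte markers summed to 167 and 218 CPM, against 3.64 and 3.33 in progenitors, and Pax2 was higher in mutant members (35.1 and 74.9 CPM, 1.07, 0.69 to 1.51). Among members with a Y-linked UMI and no Xist, Pax2 was at -2.65, but the astrocyte-gene subset there numbered only 14 control barcodes and 1 mutant barcode. Immediate early genes, which respond to handling of the cells, had a median of 0.021 over 14 genes.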

How the data were processed

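Cells of each library were counted by the authors with the 10x Genomics 3' assay, and what they deposited are unnormalized counts of UMIs, 1 matrix per library. The submitters' processing notes and the methods name Cell Ranger 7.1.0 and Seurat 4.1.1 with the mm10 build, while the matrix header names software version 3.1.0. The authors removed cells under 200 genes or over 15% mitochondrial RNA, and also cells over 2000 counts as doublets. The first 2 limits were applied here. The last was not applied, since it would leave 0 control and 2 mutant members.

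UMIs were summed over members per library and scaled to CPM. The ratio of mutant over control is log2 of CPM + 1, and a gene was measured with at least 30 UMIs over both libraries. Intervals are exact Poisson, Clopper-Pearson or exact conditional Poisson at 95%. Single library totals give no spread between animals. Members' totals were 1853148 and 3165159 UMIs. Doublets were called with Scrublet in scanpy 1.11.5 at expected rates of 11.3% and 9.62%, since its own threshold marked 0% and 5.46%, and calls were kept. Gene coordinates are GRCm38, matched by identifier for 99.6% of features. Python 3.11.15, numpy 2.4.6, pandas 2.3.3 and scipy 1.17.1 were used.

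The members, the 32 gene lists and the comparisons were chosen with earlier results of these data known, and the 3 subsets and the 6 genes counted outside the rule were chosen after their values were seen. Named genes were the 6 rule genes and the ciliary margin list, list genes past 2-fold, the 10 highest and 10 lowest with at least 50 UMIs and an interval apart from 0 (without sex-linked, mitochondrial and unnamed gene models), and the 20 highest over progenitors. Others were named to describe a subset or pathway and were chosen after their values were seen. Some genes that these rules name are not reported here.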

Additional observations from a re-analysis of the deposited data

How the results depend on the processing

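No paired analysis was possible because each genotype has 1 library, both numbered 1. The share of members (log2 ratio 0.89) was 0.61 with the rule applied after thinning to 2000 UMIs, 3.41 in barcodes with Xist and no Y-linked UMI, where the control held 3 members, 0.15 over members and progenitors and, chosen after seeing the data, 0.11 over barcodes past the exclusions. The share of Wfdc1-rich members (-1.88), a result chosen after seeing the data, was 0.064 at a mitochondrial limit of 5%. The median of the ciliary margin list (-0.63) was 0.18 at a mitochondrial limit of 5%, -1.35 with at least 3 rule genes, -1.19 with the thinned rule, -0.34 in barcodes with a Y-linked UMI and no Xist, 0.011 with each member thinned to 1000 UMIs, -0.11 with at least 100 UMIs per gene, and, for 2 sets chosen after seeing the data, 0.065 without Wfdc1-rich members and -0.32 without barcodes rich in markers of another cell type.

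Genes 2-fold or more higher (141) numbered 379 with at least 3 rule genes, 266 with the thinned rule, 75 with members thinned to 1000 UMIs, 39 with 5 CPM added, 31 with at least 100 UMIs and 337 with at least 10. Genes lower (111) numbered 396 in barcodes with a Y-linked UMI and no Xist, 73 without Wfdc1-rich members, 41 with members thinned, 64 with 5 CPM added, 34 with at least 100 UMIs and 217 with at least 10. Median-of-ratios scaling gave 122 and 122.

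Of members thinned to 2000 UMIs, 60.4% of control and 74.6% of mutant had S phase genes and 80.4% and 87.3% genes of G2 and mitosis. At 1000 UMIs with at least 1 UMI of the list the shares were 60.9% and 71.7%, and 83.5% and 87.4%. Some log2 ratios changed sign. With at least 3 rule genes Col4a1 was at 0.28, Col4a2 at 0.21 and Hbb-bs at -0.19. In barcodes with a Y-linked UMI and no Xist, Cartpt was at -5.71, Hba-a1 at -0.50, Pax2 at -2.65, the astrocyte list at -3.93 and the list tied to Myrf at -0.19. Among those barcodes the astrocyte-gene subset numbered 14 in the control and 1 in the mutant. Without barcodes rich in markers of another cell type Col4a1 was at 1.06, Col4a2 at 0.33, Hba-a1 at -0.46 and Higd1b at 3.28. Without Wfdc1-rich members Optc was at 0.21 and Wfdc1 at 0.31. With members thinned to 1000 UMIs the vitreous list was at 0.22 and the list tied to Myrf at -0.13. Without the barcode with the most UMIs Tagln was at -0.73. The cause was not tested for any of these. Of 368 list medians under alternatives 283 moved by at most 0.25, 78 moved further and 7 that were at least 0.25 from 0 changed sign. Of 826 ratios of named genes 620 stayed within their counting interval, 193 left it and 13 that were past 2-fold changed sign. A limit of at most 2000 UMIs left too few members for any value, and genes could not be compared in barcodes with Xist and no Y-linked UMI.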
